A study of Rattus norvegicus with 6 samples.

Results

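Keratins are the intermediate filament proteins of epithelial cells. A type I and a type II chain pair to build each filament, so the pair an epithelium uses is a mark of its kind. Krt8, Krt18, Krt7 and Krt19 are the chains of simple epithelia such as the collecting duct, Krt5, Krt14 and Krt15 belong to the basal layer of stratified epithelia, Krt13 and Krt20 are found in the urothelium, and a large further set is restricted to the hair and its inner root sheath. All features whose name begins with Krt and a digit were taken from the table of normalized counts, which gave 42 of 27321 features. Of these, 36 are single genes and 6 carry the names of a keratin and a second gene. The 24 type I genes all lie on chromosome 10 of rn4, between 88183169 and 89199727, and the 12 type II genes on chromosome 7, between 140096090 and 140721263. Krt18, Krt5 and Krt20 were not analysed here.

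RNA came from the terminal part of the kidney inner medulla (IM tip) of male Sprague-Dawley rats that were 3 months old. The 3 control libraries are from rats given vehicle by tail vein, and the 3 STZ libraries from rats given 62.5 mg/kg of streptozotocin, which kills the insulin-producing cells of the pancreas. Both groups were taken after 15 days. The labels do not say whether each library is from 1 rat. STZ diabetes is a model of insulin lack, and the tissue is a mixture of collecting duct, thin limb, vascular and interstitial cells. Reads of thick limb and urothelial markers were present as well, as given below.

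The values are read counts of each gene divided by a DESeq size factor for each library, called normalized counts below. Whole reads could be recovered from them, between 3412311 and 5575171 per library. Of these, the 36 keratin genes held between 663 and 1387 reads. Groups were compared with limma on log2(normalized count + 1), and a log2 fold change here means STZ minus control on that scale, on which the changes of low genes look smaller than they are. All control libraries came from sequencing lane 3 and the STZ libraries from lanes 7, 6 and 8, so lane and treatment cannot be told apart in any comparison below.

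Of the 36 keratin genes, 8 had a mean of at least 5 normalized counts over the 6 libraries and were tested: Krt7, Krt8 and Krt19 of the simple epithelial group, Krt15 of the stratified group, Krt25 of the hair group, and Krt10, Krt23 and Krt80. None of the 8 had an adjusted p under 0.05 by limma, beside 2.10% of the 13486 features tested (1.17% higher in STZ and 0.927% lower). At an unadjusted p under 0.05 there were 2, Krt8 and Krt10, beside 14.7% of all features. The quasi-likelihood test of edgeR on the recovered reads also called 0 of the 8, beside 2.13% of all features. DESeq2 called Krt8, 1 of the 5 for which it gave an adjusted p, beside 6.63% of 9035 features. Under a replicate block, which treats libraries of the same number as paired, limma called Krt10, beside 4.16% of all features. The labels do not say that they are paired. Krt8 and Krt10 were also the 2 of 8 tested whose groups did not overlap, a share of 25%, beside 20.3% of all features. The log2 fold change was above 0 for 3 of the 8, beside 50.5% of all features, and below 0 for 5. Their median was −0.48, and that of all features tested was 0.01. In bulk tissue such as this, fewer cells of a type and less RNA per cell cannot be told apart.

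The letters upstream of Krt8 and Krt10 are shown because these were the tested keratins whose groups did not overlap. Sequences were taken from RefSeq on the assembly GRCr8, which is not the build of the deposited table. They run 5′ to 3′ around a TATA box, with its letters TATAAA in capitals. That of Krt8 is from chr7:135010423-135010483, minus strand, and that of Krt10 from chr10:84839169-84839229, minus strand.
Krt8: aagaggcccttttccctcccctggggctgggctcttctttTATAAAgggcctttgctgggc
Krt10: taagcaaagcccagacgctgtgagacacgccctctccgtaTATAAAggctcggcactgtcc
The first base of the TATA box stands 104 bases before the listed start of Krt8, where the letters ATG follow, and 29 bases before that of Krt10. On either strand of the 250 bases before the start, TATAAA was present in 12.9% of 33469 promoters, and at Krt8 a match on the other strand overlaps the first. The GC box letters GGGCGG were present in 30.5% of promoters and the AP-1 letters TGANTCA in 6.34%, and neither was found at Krt8 or Krt10. Of the 8 keratins tested, 4 had a promoter in this table. Krt25 held TATAAA as well and Krt23 did not.

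Krt8 is the type II chain of simple epithelia, and the normal partner of Krt18. It lies on chromosome 7 of rn4 from 140713909 to 140721263. Its normalized counts in replicates 1, 2 and 3, the order used throughout, were 349, 299 and 306 for control against 525, 686 and 405 for STZ. Every STZ library lay above every control library. The means were 318 ± 26.8 for control against 539 ± 141 for STZ (SD, n = 3 each). The log2 fold change was 0.73 (SE 0.21, 95% interval 0.26 to 1.20), with an unadjusted p of 0.00603 and an adjusted p of 0.122 by limma. Adjusted p values on recovered reads were 0.107 by edgeR and 0.025 by DESeq2, so Krt8 was called by 1 of the 3 tools. DESeq2 adjusted over 9035 features and the others over 13486. Leaving out each library in turn moved the log2 fold change between 0.54, without STZ replicate 2, and 0.92, without STZ replicate 3.

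Krt7, a type II chain found in the collecting duct and the urothelium, lies on chromosome 7 from 140160828 to 140175532. It had 111, 93.8 and 74.6 normalized counts in the control libraries and 109, 44.5 and 65.3 in the STZ libraries. The groups overlapped, with STZ replicate 1 close to the highest control library. The log2 fold change of Krt7 was −0.43 (95% interval −1.11 to 0.26, SE 0.31, adjusted p 0.61 by limma). It was −0.12 without STZ replicate 2 and −0.76 without STZ replicate 1.

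Krt19 is the smallest type I chain and is found in ducts and in the urothelium. It lies on chromosome 10 from 89080952 to 89085670. Krt19 measured 354, 267 and 94.6 normalized counts for control against 489, 218 and 273 for STZ. Control replicate 3 was the lowest of the 6 and STZ replicate 1 the highest, and the middle values of the groups overlapped. Its log2 fold change was 0.56 (95% interval −0.40 to 1.53, SE 0.44, adjusted p 0.641 by limma). Without control replicate 3 the log2 fold change of Krt19 was 0.001, so the size of this difference rests on that library.

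**Figure D1:**
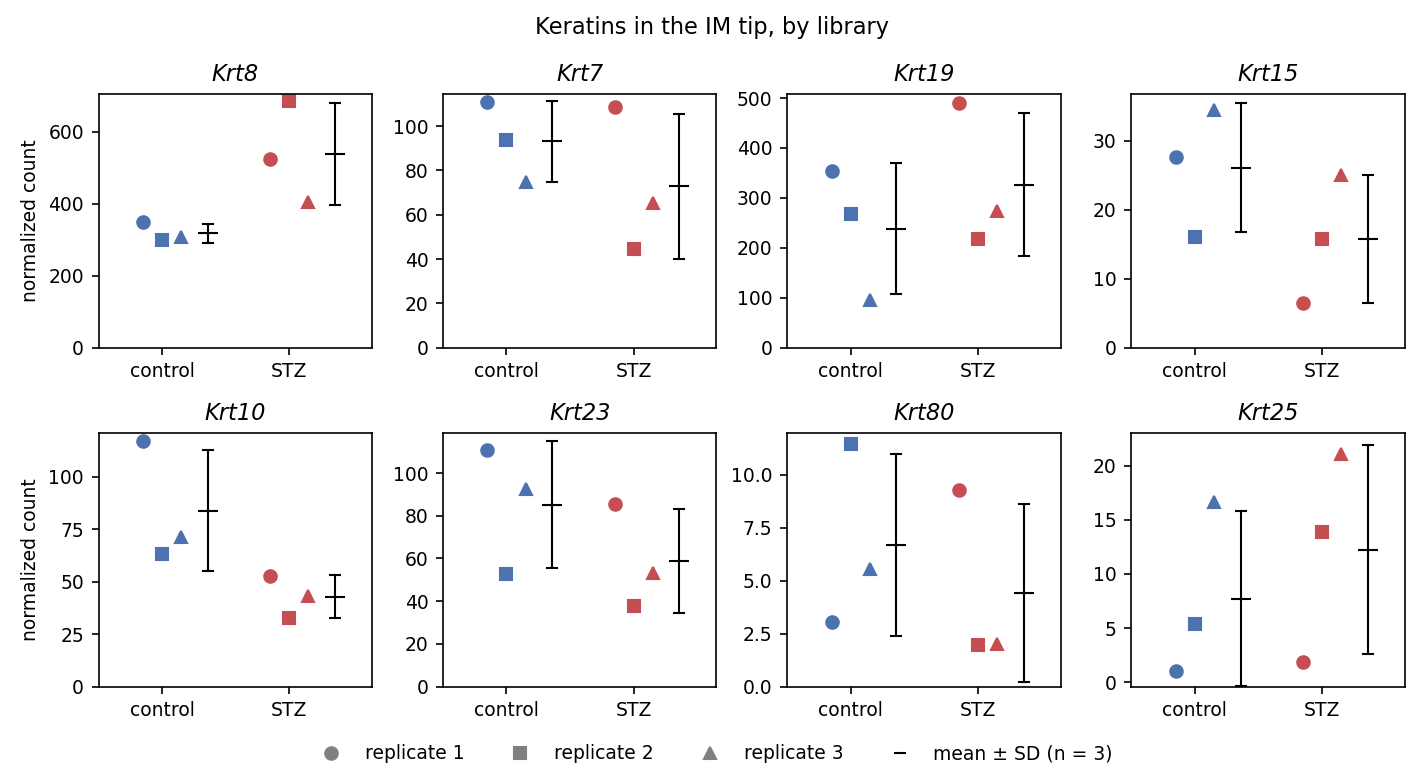
Normalized counts (y axis of each panel) of the 8 keratins tested in control and STZ libraries (x axis), with a symbol for each replicate and the mean ± SD of 3 libraries beside each group. Krt8 sits between 299 and 349 in control and between 405 and 686 in STZ libraries and Krt10 between 63.3 and 117 and between 32.6 and 52.9, while the groups overlap in the other 6.

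Summed over Krt7, Krt8 and Krt19, the simple epithelial keratins measured 813, 660 and 475 normalized counts for control against 1123, 949 and 743 for STZ. The lowest STZ library was below the highest control library. The difference in the mean log2 sum was 0.54 (exact permutation test, two-sided, p = 0.2), and 3 libraries against 3 cannot give a p under 0.1. That test had 3 planned quantities that could be computed. They were the sums of the simple and of the stratified keratins and the ratio of Krt7 to Krt19. The Benjamini-Hochberg adjusted p over these 3 was 0.2 for each. The test was also run on other sums and ratios, which were not planned and which the adjustment leaves out.

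Ratios of the simple keratins within a library need no size factor. The ratio of Krt7 to Krt19 was 0.313, 0.351 and 0.788 for control against 0.222, 0.205 and 0.239 for STZ. All 3 STZ ratios lay below the control ratios, and the difference of the log2 ratio was −0.999 (exact permutation test, two-sided, p = 0.1, which is the least it can give). Without control replicate 3, the library with the low Krt19, the difference was −0.58. The ratio of Krt8 to Krt7 was 3.15, 3.19 and 4.10 for control against 4.83, 15.4 and 6.20 for STZ, again without overlap. STZ replicate 2 stood highest, and without it the difference of the log2 ratio was 0.66 in place of 1.16. This ratio and that of Krt10 to Krt8 were chosen after the values were seen. The exact test was also run on both, but its p-values cannot be read as planned tests and are not given. The ratio of Krt8 to Krt19 ran from 0.986 to 3.24 for control against 1.07 to 3.15 for STZ, with overlap.

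Krt8 held 32.0%, 35.7% and 41.5% of the keratin reads in the control libraries and 40.7%, 63.8% and 43.1% in the STZ libraries. Krt7 held between 10.1% and 11.2% in control and between 4.14% and 8.44% in STZ libraries. Reads are not divided by transcript length, so these are shares of reads and do not rank the genes by transcript number. The type II genes together had between 397 and 463 normalized counts in control and between 487 and 739 in STZ libraries, and the type I genes between 341 and 625 and between 337 and 644. The type I sums overlapped between the groups and the type II sums did not. Most of the type II sum was Krt8, and without it the sums were 115, 111 and 91.3 for control against 119, 52.4 and 82.3 for STZ, with overlap.

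**Figure D2:**
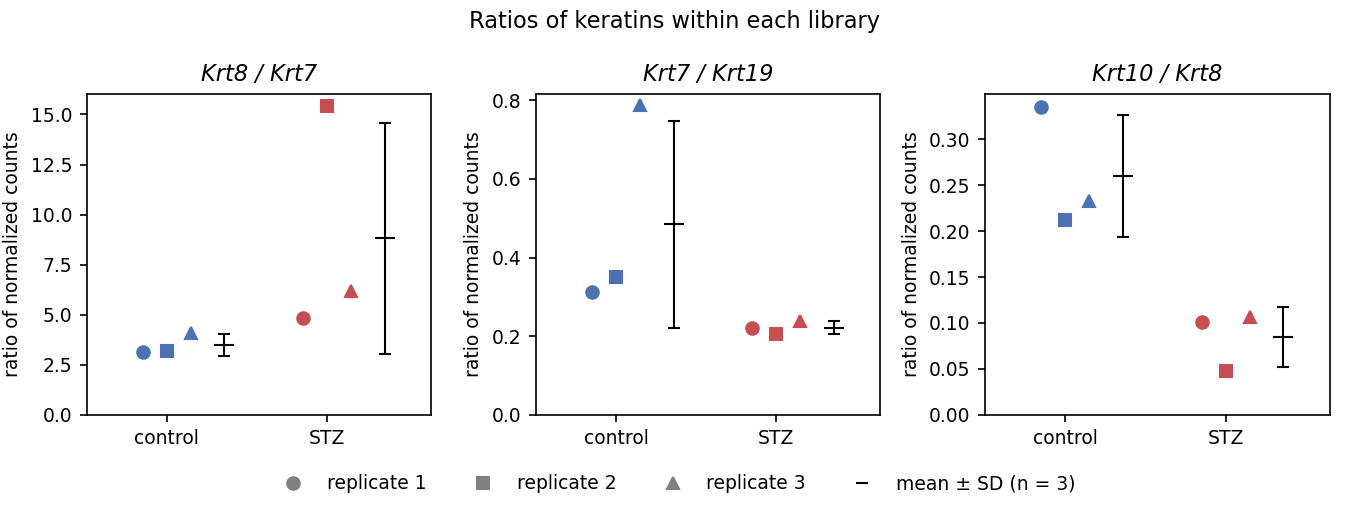
Ratios of the normalized counts of 2 keratins within a library (y axes) in control and STZ libraries (x axis), with a symbol for each replicate and the mean ± SD of 3 libraries beside each group. Krt8 over Krt7 is higher in every STZ library, and Krt7 over Krt19 and Krt10 over Krt8 are lower in every STZ library. Krt10 over Krt8 had to be, because Krt10 is lower and Krt8 higher in every STZ library. The size of the first depends on STZ replicate 2, at 15.4, and that of the second on control replicate 3, at 0.788.

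Among the keratins of stratified epithelia and the urothelium, Krt15 was the one with enough reads to test. Krt15, a type I chain of basal cells on chromosome 10 from 89071919 to 89075732, measured 27.7, 16.02 and 34.5 normalized counts for control against 6.50, 15.8 and 25.1 for STZ. The groups overlapped, with a log2 fold change of −0.80 (95% interval −1.85 to 0.25, SE 0.48, adjusted p 0.498 by limma). Without STZ replicate 1, the lowest library, the log2 fold change of Krt15 was −0.30, and without STZ replicate 3 it was −1.20.

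Krt14, the type I partner of Krt5 in basal cells, had 5 reads in each control library and 2, 1 and 2 reads in STZ replicates 1, 2 and 3. The groups did not overlap. Over the 13486 features tested the share without overlap was 20.3%, but Krt14 is not among them. Krt14 lay above the 95th percentile of olfactory receptor genes, described below, in 1 of the 6 libraries, control replicate 1. The mean of Krt14 was under 5 normalized counts, so it was not tested. Krt27 of the hair group, also not tested, went the other way, with no read in any control library and 1 in each STZ library. It lay above that percentile in no library. Krt13, a type I chain of internal stratified linings and the urothelium, had 2 reads in control replicates 1 and 2 and none in the other 4 libraries. Summed with Krt15, Krt13 and Krt14 gave 34.9, 21.4 and 40.1 normalized counts for control against 8.36, 16.8 and 27.1 for STZ. The difference in the mean log2 sum was −0.99 (exact permutation test, two-sided, p = 0.2). STZ replicate 3 lay above control replicate 2. Merged features were also close to empty: the 6 had at most 3 reads in any library, so few reads of Krt14, Krt16, Krt17 or Krt19 were lost to them. Krt14, Krt16 and Krt17 are close in sequence, and reads that match more than one of them were not counted, which makes their low values uncertain.

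Krt10, the type I chain of the suprabasal epidermis and the partner of Krt1, lies on chromosome 10 from 88288619 to 88292615. Krt10 measured 117, 63.3 and 71.2 normalized counts for control against 52.9, 32.6 and 43.2 for STZ. Every STZ library lay below every control library. The means were 83.8 ± 28.9 and 42.9 ± 10.1 (SD, n = 3 each), and the log2 fold change was −0.92 (SE 0.29, 95% interval −1.56 to −0.29). The unadjusted p was 0.00834 and the adjusted p 0.143 by limma, 0.136 with edgeR and 0.0917 with DESeq2. Without control replicate 1, the highest library, the log2 fold change of Krt10 was −0.66. Its partner Krt1 had at most 3 reads in any library.

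In proportion to Krt8, Krt10 measured 0.335, 0.212 and 0.233 for control against 0.101, 0.0476 and 0.107 for STZ. This ratio had to separate the groups, because Krt10 was lower and Krt8 higher in every STZ library. Krt10 held between 7.56% and 10.7% of the keratin reads in control and between 3.03% and 4.60% in STZ libraries.

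Krt23, a type I chain whose role is little known, lies on chromosome 10 from 88420779 to 88436791. It measured 111, 52.6 and 92.4 normalized counts for control against 85.4, 37.6 and 53.2 for STZ. The groups overlapped, with a log2 fold change of −0.54 (95% interval −1.30 to 0.21, SE 0.34, adjusted p 0.536 by limma). Leaving out a library moved the value of Krt23 between −0.27, without STZ replicate 2, and −0.85, without control replicate 2 or STZ replicate 1. Krt80, a type II chain of many epithelia, had between 3.08 and 11.4 normalized counts in control and between 1.98 and 9.29 in STZ libraries. Its log2 fold change of −0.62 had an SE of 0.79 and an adjusted p of 0.83 by limma, and the 95% interval of Krt80 reached from −2.35 to 1.11. Without control replicate 1 the log2 fold change of Krt80 was −1.001, and without STZ replicate 2 or 3 it was −0.32.

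**Figure D3:**
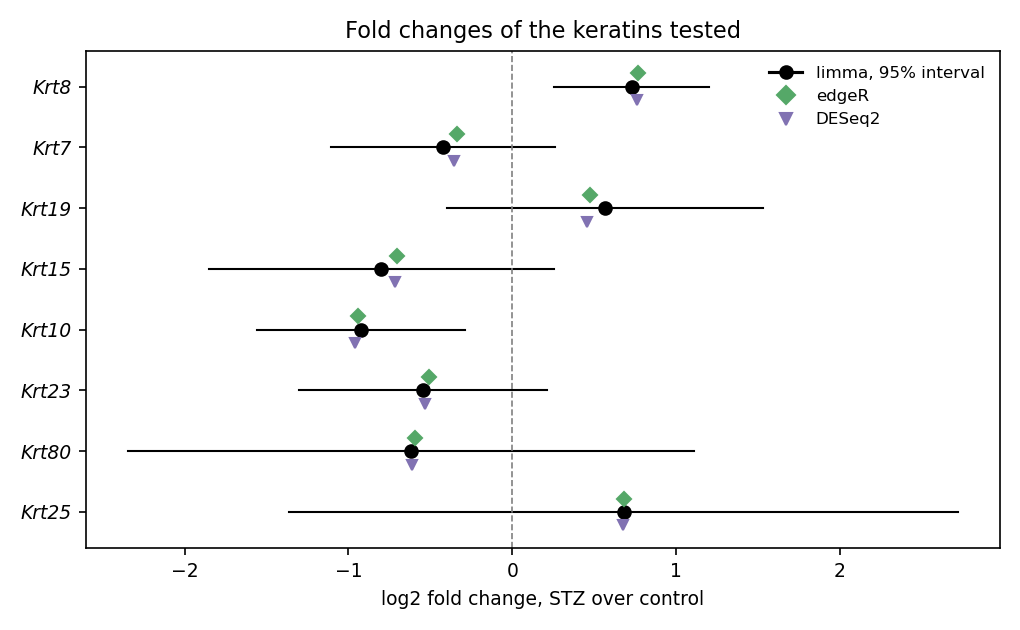
Log2 fold change of STZ over control (x axis) for the 8 keratins tested (y axis). Circles and lines are the limma estimate and its 95% interval, diamonds the edgeR and triangles the DESeq2 estimate on recovered reads. The intervals of Krt8 (0.26 to 1.20) and Krt10 (−1.56 to −0.29) do not reach 0 before adjustment for the 13486 features tested, while those of the other 6 do.

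The hair group was the largest, with 18 genes in the table, including the feature named Krt1-5, a synonym of Krt36 in RefSeq. Of these, 12 were at or under 3 reads in all 6 libraries and 2 had no read at all. No gene of the group exceeded 3 reads in all 6 libraries. For comparison, the 95th percentile over 836 olfactory receptor genes, which are not expected to be transcribed in this tissue, was 2.05, 6.29 and 10.02 normalized counts for control against 1.86, 5.93 and 9.03 for STZ. It was not planned beforehand and was not adjusted for gene length. No hair keratin lay above it in all 6 libraries, and 13 of the 18 lay above it in none. Over all 36 keratin genes, 6 lay above it in all 6 libraries, namely Krt7, Krt8, Krt10, Krt15, Krt19 and Krt23, while 7 did in 1 to 5 libraries and 23 in none.

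Krt25, a type I chain of the inner root sheath, was the hair keratin with the most reads. It measured 1.03, 5.34 and 16.7 normalized counts for control against 1.86, 13.8 and 21.1 for STZ. In both groups replicate 1 was lowest and replicate 3 highest. Krt25 had a log2 fold change of 0.68 with an SE of 0.93 (adjusted p = 0.845 by limma). Summed over the 18 genes, the hair keratins gave 10.3, 20.6 and 32.3 normalized counts for control against 8.36, 29.7 and 54.2 for STZ. The summed olfactory receptor genes stood in the same order, with 359, 945 and 1466 for control against 350.1, 1060 and 1497 for STZ. Per 100 olfactory receptor normalized counts, the hair keratins came to between 2.18 and 2.86 in control and between 2.39 and 3.62 in STZ libraries, with overlap. The part of this background in the hair keratin values was not tested.

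**Figure D4:**
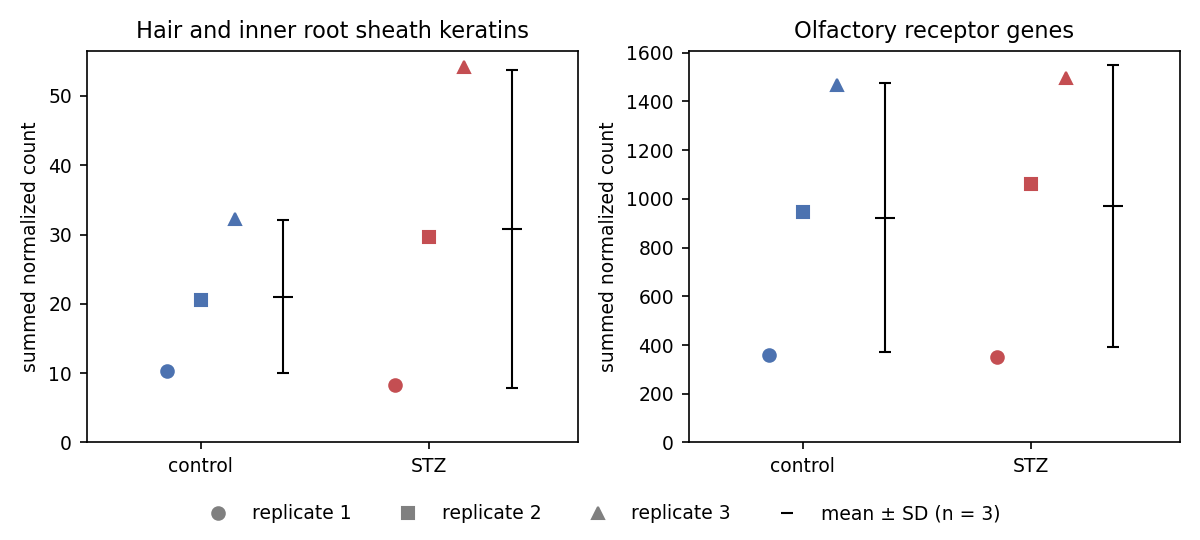
Summed normalized counts (y axes) of the 18 hair and inner root sheath keratins and of the 836 olfactory receptor genes in control and STZ libraries (x axis), with a symbol for each replicate and the mean ± SD of 3 libraries beside each group. In both panels replicate 1 is lowest and replicate 3 highest in either group, and the groups overlap.

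The remaining keratins of the epidermis, cornea and internal linings were close to silent. Krt1, Krt2, Krt17, Krt24, Krt42 and Krt76 were at or under 3 reads in all 6 libraries, with no read for Krt42. Krt4, of internal stratified linings, Krt9, of thick skin, and Krt16, of activated keratinocytes, had at most 5, 4 and 9 reads in any library, and none lay above the olfactory receptor percentile in any library. None of these genes was tested, and a fall or a small change in any of them was not detectable at this depth.

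Keratin filaments end on desmosomes and hemidesmosomes, and the genes of these junctions were examined in the same fit. Of 11 desmosome and plakin genes found, 7 were tested and 0 had an adjusted p under 0.05 by limma, beside 2.10% of all features. At an unadjusted p under 0.05 there was 1, beside 14.7%. None was called by edgeR or DESeq2, beside 2.13% and 6.63%. The median log2 fold change of the 7 was 0.11. Ppl, the plakin periplakin that binds keratin at the cell border, measured 146, 145 and 121 normalized counts for control against 202, 196 and 184 for STZ. Its groups did not overlap, and 20.3% of all features had groups without overlap. Its log2 fold change was 0.50 (adjusted p 0.221 by limma, SE 0.18). Jup, the desmosomal plaque protein plakoglobin, had 230 ± 17.8 and 235 ± 13.3 (SD, n = 3 each).

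Of 5 hemidesmosome genes found, 4 were tested and 0 called by limma, beside 2.10% of all features. At an unadjusted p under 0.05 there was 1, beside 14.7%. None was called by edgeR, beside 2.13%, and 1 by DESeq2, beside 6.63%. That gene was Plec, whose product plectin links intermediate filaments to junctions. Plec measured 217, 294 and 236 normalized counts for control against 682, 655 and 334 for STZ. No STZ library was as low as a control library, and 20.3% of all features had groups without overlap. The log2 fold change of Plec was 1.10 with an SE of 0.27. Its adjusted p was 0.067 by limma, 0.0575 by edgeR and 0.0016 by DESeq2. Ppl, Jup and Plec here, and Sprr1a, Lmna and Elf3 in what follows, were singled out after their values were seen. So were Aqp3, Scnn1b, Scnn1g, Hsd11b2, Fxyd4 and Dcn among the cell type markers.

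Of 10 cornified envelope genes found, 5 were at or under 3 reads in all libraries and 3 were tested. By limma, edgeR and DESeq2 0 were called, beside 2.10%, 2.13% and 6.63% of all features. DESeq2 gave no adjusted p for Scel and Tgm3. One of the 3, Sprr1a, a small proline-rich crosslinked protein, had an unadjusted p under 0.05, beside 14.7% of all features. Its groups overlapped, with 66.6, 11.4 and 6.68 normalized counts for control against 88.2, 51.4 and 53.2 for STZ. The other intermediate filament genes numbered 12 in the table and 5 tested. Of these, 0 were called by limma, edgeR or DESeq2, beside the same shares. At an unadjusted p under 0.05 there were 0, beside 14.7%. DESeq2 gave no adjusted p for Bfsp1 and Lmnb1. Vim, the filament protein of mesenchymal cells, had 155 ± 47.6 normalized counts for control against 135 ± 5.69 for STZ (SD, n = 3 each), and Lmna, of the nuclear lamina, 200 ± 27.0 and 286 ± 96.0.

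Among 13 transcription factors of keratin genes and stratification found, 10 were tested, 1 rose and 1 fell by limma, beside 1.17% and 0.927% of all features, and 4 had an unadjusted p under 0.05, beside 14.7%. Klf4, a zinc finger factor of epithelial differentiation, measured 87.1, 98.4 and 111 normalized counts for control against 23.2, 33.6 and 37.1 for STZ. Its log2 fold change was −1.65 (adjusted p 0.0084 by limma, SE 0.25). Pparg, a nuclear receptor active in urothelium and collecting duct as well as in fat, measured 42.0, 58.7 and 28.9 for control against 229, 128 and 152 for STZ, a log2 fold change of 1.96 (adjusted p 0.00867 with SE 0.30). In both genes no library of one group reached the range of the other. Tp63, the master factor of basal cells, had between 1.03 and 10.02 normalized counts in control and between 0.929 and 11.9 in STZ libraries. The ets factor Elf3, of simple epithelia, had 3277 ± 1182 and 4336 ± 550 (SD, n = 3 each), with an adjusted p of 0.502 by limma.

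**Figure D5:**
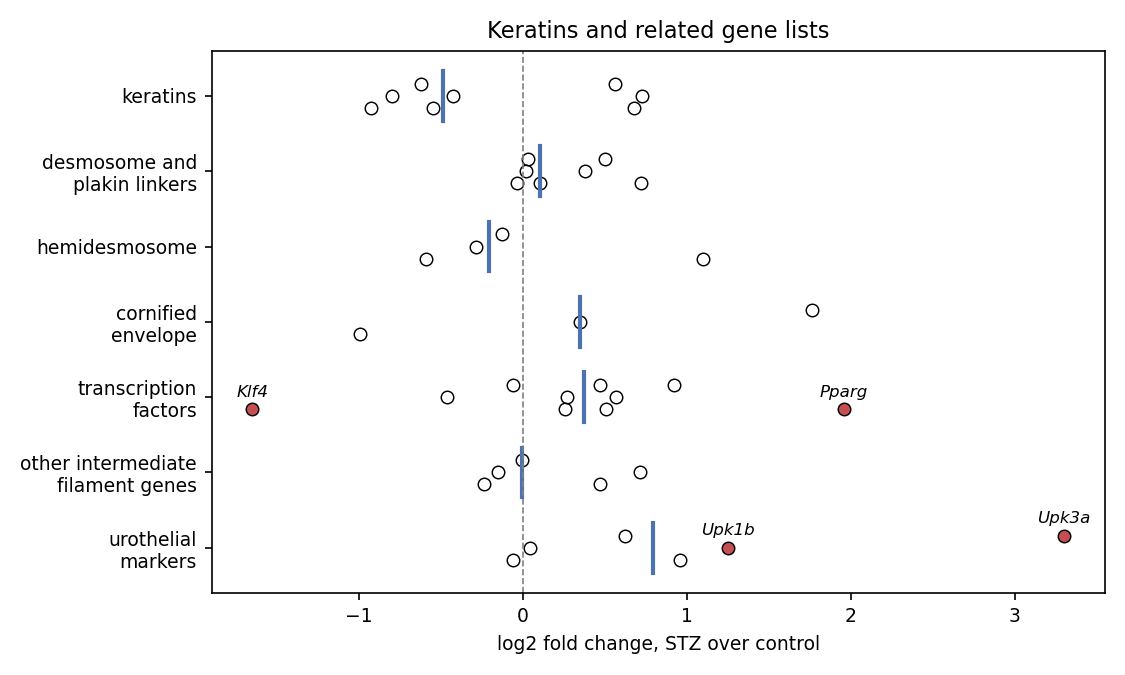
Log2 fold change of STZ over control (x axis) for the tested keratins and the tested members of 6 related gene lists (y axis). Each circle is a gene, filled where the adjusted p by limma was under 0.05, and the vertical bars are list medians. No keratin, junction, envelope or other filament gene is filled, while Klf4 (−1.65), Pparg (1.96), Upk1b (1.25) and Upk3a (3.30) are.

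Markers of several cell types were examined in the same fit. There 1.17% of all features were called higher and 0.927% lower by limma, and 14.7% had an unadjusted p under 0.05. In either direction, edgeR called 2.13% and DESeq2 6.63%. Of 6 urothelial markers found and tested, Upk1b and Upk3a rose and none fell, and the summed list ran 149.5 to 188 normalized counts for control against 509 to 569.7 for STZ. None of them was at 0. Upk3a made up most of this sum in STZ libraries, with 344 ± 19.7 normalized counts against 35.3 ± 12.8 in control (SD, n = 3 each), while Upk1a had 28.5 ± 2.43 and 32.9 ± 17.7. Of 8 principal cell markers tested, 0 were called by limma or edgeR and 2 by DESeq2, with 5 at an unadjusted p under 0.05, and Aqp2, their water channel, had 2881 ± 752 and 5246 ± 1907. Those 5 went both ways: Aqp2, Aqp3, Scnn1b and Scnn1g had log2 fold changes above 0, and Hsd11b2, the enzyme that inactivates glucocorticoids, had −0.83, with 41.6 ± 15.04 and 22.1 ± 0.697 normalized counts (SD, n = 3 each). The summed principal cell list ran 45300 to 70486 normalized counts for control against 55957 to 93035 for STZ. Fxyd4 was the largest part of that sum, with 29349 ± 6982 and 36746 ± 11272 (SD, n = 3 each). Of 5 intercalated cell markers tested, 4 fell by limma, namely Atp6v0d2, Atp6v1b1 and Atp6v1g3 of the proton pump and the anion exchanger Slc4a1, with log2 fold changes between −1.89 and −1.10, and the summed list ran 1150 to 2607 for control against 459 to 531 for STZ. Of 3 thick limb markers tested, Egf (−2.06) and Umod (−2.93) fell, with sums from 1099 to 1886 and from 209.8 to 597. Of 5 endothelial markers, Emcn (−1.38) and Plvap (−1.01) fell, with sums from 6987 to 9081 and from 3600 to 3990.0. Emcn made up most of that sum in control, and Pecam1, an adhesion protein of endothelium, had 779.6 ± 273 and 774 ± 118 (SD, n = 3 each). One of 6 interstitial markers (Pdgfra, 1.03) and 1 of 2 smooth muscle markers (Tagln, 1.34) rose, with sums from 7590 to 9182 and from 4830 to 10957 for the first list and from 200.9 to 289 and from 568 to 600.4 for the second. Most of the interstitial sum was Dcn, with 7619 ± 808 normalized counts for control against 6379 ± 2955 for STZ (SD, n = 3 each). No thin limb marker of 3 and no leukocyte marker of 5 tested was called by limma, edgeR or DESeq2, and 0 of either list had an unadjusted p under 0.05. Their sums ran 2450 to 3036 for control against 2711 to 3333 for STZ for the thin limb, and from 612 to 2011 and from 1127 to 1931 for leukocytes. The part of these cell types in the keratin values was not tested.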

How the data were processed

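Per the labels, reads were mapped by the authors with STAR 2.3.1t on rn4, and those with a unique position were counted per gene and scaled in DESeq 1.16.0, and the deposited signal is a normalized count, the reads of a gene divided by a size factor. How strand was treated in counting, and by which program, is not given in the sources used here, so antisense genes could share reads. cDNA was amplified by PCR without molecular identifiers, so the floor of 3 reads covers counting error only. Values were whole multiples of a step per library (tolerance 0.1 reads) in 100% of cases, which recovered whole reads. P-values measure only the spread between these libraries, which may be technical.

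Features whose mean reached 5 normalized counts were compared with limma 3.58.1 in R 4.3.3 with an intensity trend, and adjusted by Benjamini-Hochberg over all 13486. Since these are not counts, edgeR 4.0.16 and DESeq2 1.42.0 served as alternatives on recovered reads. DESeq2 gave an adjusted p for 9035 of the 13486 features, so its counts of members called leave out the others. Scripts were tested on simulated data. Figures used matplotlib 3.10.9, and exact tests scipy 1.17.1. The keratins with a mean of at least 5, the called members of the related lists and a few defining markers are named. Further genes were singled out after their values were seen, as stated above. Members and lists were chosen with earlier results of these data known. Keratins listed under other names, such as Ka11, were left out.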

Additional observations from a re-analysis of the deposited data

How the results depend on the processing

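The 8 keratins kept the side of the adjusted threshold under pseudocounts of 0.5 and 5, minimum means of 1 and 20, no filter, limma without the trend, equal library totals, edgeR, and each library left out in turn, wherever they could be fitted. DESeq2 called 1 keratin higher, Krt8, and limma with a replicate block called 1 lower, Krt10, at an adjusted p of 0.0462. Over 16 alternatives the adjusted p ran from 0.025 to 0.423 for Krt8 and from 0.0462 to 0.421 for Krt10, and neither changed sign. The log2 fold change of Krt25 was −0.11 without control replicate 1, where the sign turned, and 1.57 without STZ replicate 1; the other 7 kept theirs. The labels do not say that same-numbered libraries are paired, and their deviations correlated at 0.395, −0.0612 and 0.323. The block moved the number of features called from 283 to 561. DESeq2 called 599, limma without the trend 31, and leaving out a library between 86 (without STZ replicate 2) and 341 (without control replicate 3). Of the related lists, 14 features were called, 1 without the trend, between 8 and 13 with a library left out (8 without STZ replicate 2), and between 13 and 18 under the other alternatives, with 18 by DESeq2 and 17 with the block, which also called Plec (adjusted p 0.0226) and Sprr1a (0.0462). The causes were not tested. Leaving out a library, the difference of the log2 sum ran from 0.34 to 0.72 for the simple keratins and from −1.39 to −0.54 for the stratified keratins. The log2 ratio of Krt7 to Krt19 ran from −1.25 to −0.58, and that of Krt8 to Krt7 from 0.66 to 1.50. Against the 99th percentile of olfactory receptor genes, chosen after seeing the data, 5 keratin genes were above background in all libraries, in place of 6. Ratios of Krt8 to Krt18 and of Krt5 to Krt14 could not be computed, as Krt18 and Krt5 were not analysed here.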
